A study of Mus musculus with 9 samples.

Results

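The 41 genes described here are interferon-stimulated genes. They were taken from a list of symbols, and they divide into 34 type I antiviral genes and 7 GBP and IRG GTPases. Each symbol matched 1 mouse Ensembl gene among the 55487 gene IDs of the deposited count tables. The cells were J774A.1, a mouse macrophage line, and the study asked how disruption of Slc12a9, a gene of the cation-chloride cotransporter family, changes expression in cells deprived of glutamine, an amino acid whose breakdown releases ammonia. Poly(A) RNA was sequenced from 9 libraries. There were 3 libraries of cells with Slc12a9 sgRNA 11, 3 of cells with Slc12a9 sgRNA 15 and 3 of cells with safe sgRNA, the control guide. The labels call the genotype SLC12A9 knockdown for both Slc12a9 guides and WT for safe sgRNA, whereas the design text speaks of knockout cells, so the groups are named here by their guide. All 9 cultures had been grown in DMEM with 10% fetal bovine serum, glutamine, penicillin and streptomycin and were then kept for 6 h in DMEM with the same antibiotics but without serum or glutamine before RNA was taken. No group without that deprivation and no interferon-treated group is among them. The labels do not say whether the cells of a guide were 1 clone or a pool, or whether the replicates of a group were separate cultures, so the p-values measure the spread between these libraries, which may be technical.

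Interferon-stimulated genes are transcribed when an interferon binds its receptor. The type I receptor signals through the kinases JAK1 and TYK2 to a complex that holds STAT2 and IRF9 and binds the interferon-stimulated response element (ISRE). Interferon gamma signals through its own receptor and acts at the gamma-activated site (GAS). The products sense viral RNA, degrade it, block its translation, modify other proteins or trap virus particles, while the guanylate-binding proteins (GBP) and immunity-related GTPases (IRG) assemble on the membranes of vacuoles that hold bacteria or parasites. Macrophages are known to keep many of these genes at a low level without infection.

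Promoter windows from 250 bases before to 50 bases after the transcription start, from RefSeq on build GRCm38.p6, were held for 31 of the 41 genes. They were searched on both strands for the core of the ISRE, spelled GAAA, any 2 bases, GAAA, and for the palindromic core of the GAS, spelled TTC, any 3 bases, GAA. The ISRE core stood in windows of 16 of the 31 genes (51.6%), of 11 of the 25 type I antiviral genes (44%) and of 5 of the 6 GTPases (83.3%). Of all 27025 genes with a window, 3.99% held it. The GAS core stood in windows of 6 genes (19.4%), 4 of the 25 type I genes (16%) and 2 of the 6 GTPases (33.3%), against 9.55% of all genes with a window. The stretches below belong to some of these genes, of which Igtp was not called in any comparison with all 9 libraries. Each is read 5′ to 3′ along its gene, and capitals mark ISRE cores (read as TTTC, any 2 bases, TTTC where they lie on the other strand; overlapping cores run together) and GAS cores. A match is a description of letters and not a measured binding site.
Isg15, chr4:156200819-156200928, minus strand: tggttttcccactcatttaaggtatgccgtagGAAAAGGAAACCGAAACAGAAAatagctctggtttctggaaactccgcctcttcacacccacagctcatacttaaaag
Rsad2, chr12:26456503-26456602, minus strand: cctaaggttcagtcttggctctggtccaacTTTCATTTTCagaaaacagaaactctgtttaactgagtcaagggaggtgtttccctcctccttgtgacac
Oas1g, chr5:120887614-120887703, minus strand: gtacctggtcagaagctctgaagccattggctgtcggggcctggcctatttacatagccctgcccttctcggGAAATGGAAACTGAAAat
Oas1a, chr5:120907526-120907635, minus strand: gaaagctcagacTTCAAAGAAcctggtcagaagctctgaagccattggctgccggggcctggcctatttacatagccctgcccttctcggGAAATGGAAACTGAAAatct
Gbp2, chr3:142620543-142620618, plus strand: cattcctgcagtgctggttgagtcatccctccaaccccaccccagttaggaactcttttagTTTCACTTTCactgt
Gbp7, chr3:142530216-142530335, plus strand: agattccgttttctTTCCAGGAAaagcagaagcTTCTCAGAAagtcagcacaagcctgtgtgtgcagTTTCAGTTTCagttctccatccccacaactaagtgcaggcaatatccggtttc
Igtp, chr11:58199476-58199555, plus strand: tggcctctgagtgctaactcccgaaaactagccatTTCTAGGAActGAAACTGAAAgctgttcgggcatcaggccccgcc
The Isg15 stretch held 3 overlapping ISRE cores and no GAS core. The neighbouring genes Oas1a and Oas1g, near-identical copies on chromosome 5, had stretches identical at 88 of 90 aligned bases (97.8%), with the same run of overlapping ISRE cores. The Rsad2 and Gbp2 stretches each held 1 ISRE core on the other strand. Oas1a, Gbp7 and Igtp had both kinds of core.

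Counts in genes came to 16405300 to 25614000 per library, of which the 41 genes held 18333 to 29074 counts. All 41 genes passed the filter on low counts, which left 13453 genes for testing, and a change is called here at an edgeR quasi-likelihood p adjusted by Benjamini-Hochberg over all 13453 genes (two-sided) under 0.05. Levels are CPM, counts scaled to library size with TMM factors, and are given ± SD of 3 libraries; log2 fold changes are given ± SE. Gene positions are those of GENCODE M21 on mm10. Calls were common in this experiment: 65.8% of tested genes were called with sgRNA 11 and 62.9% with sgRNA 15 against safe sgRNA, so a call alone does not set a gene apart. The targeted transcript was not lowered. Slc12a9 had 62.6, 66.3 and 67.0 CPM with sgRNA 11, 48.2, 50.01 and 51.7 CPM with sgRNA 15 and 44.8, 53.5 and 47.0 CPM with safe sgRNA. The libraries with sgRNA 11 lay above those with safe sgRNA, and those with sgRNA 15 overlapped them. The log2 fold change was 0.43 ± 0.05 with sgRNA 11 (edgeR adjusted p = 6.45e-13) and 0.05 ± 0.05 with sgRNA 15 (edgeR adjusted p = 0.426). The protein was not measured here. Markers of macrophages (8 genes, all tested) summed to 8447 to 8750 CPM with sgRNA 11, 6857 to 6950 CPM with sgRNA 15 and 5099 to 5263 CPM with safe sgRNA. The markers did not move alike: 6 were higher and 2 lower with sgRNA 11, and 5 higher and 2 lower with sgRNA 15. Cd14, a co-receptor for bacterial lipopolysaccharide, was lower with both guides (log2 -0.65 ± 0.02 with sgRNA 11 and -0.46 ± 0.02 with sgRNA 15). Itgam, an integrin chain, was higher with both (log2 0.75 ± 0.03 with sgRNA 11 and 0.17 ± 0.03 with sgRNA 15), although 68.7% of its exon length overlaps another annotated gene, Gm49368. Csf1r, the receptor of a macrophage growth factor, was higher with sgRNA 11 and not called with sgRNA 15 (log2 0.57 ± 0.02 with sgRNA 11 and -0.02 ± 0.02 with sgRNA 15). Summed markers of T cells came to 8.81 to 9.198 CPM with sgRNA 11, 9.27 to 9.88 CPM with sgRNA 15 and 4.53 to 5.26 CPM with safe sgRNA, nearly all Lck, with Cd3e and Cd3g at 0 counts. Neutrophil markers came to 3.17 to 4.09 CPM with sgRNA 11, 3.66 to 4.12 CPM with sgRNA 15 and 1.72 to 2.91 CPM with safe sgRNA. Fibroblast markers came to 1.84 to 2.46 CPM with sgRNA 11, 1.88 to 2.61 CPM with sgRNA 15 and 1.21 to 1.68 CPM with safe sgRNA. The only tested gene of each of these lists was called higher with both guides, S100a8 for neutrophils (log2 0.54 ± 0.19 with sgRNA 11 and 0.64 ± 0.19 with sgRNA 15), Pdgfra for fibroblasts (log2 0.67 ± 0.24 with sgRNA 11 and 0.68 ± 0.24 with sgRNA 15) and Lck for T cells (log2 0.93 ± 0.12 with sgRNA 11 and 1.01 ± 0.12 with sgRNA 15). Dendritic cell markers summed to 5.74 CPM or less in every library, and the only tested one, Zbtb46, was higher with sgRNA 15 alone by call (log2 0.21 ± 0.16 with sgRNA 11 and 0.44 ± 0.16 with sgRNA 15). B cell markers were at 0.408 CPM or less. Whether these marker differences have a part in the results below was not tested. In bulk RNA a change in the number of cells and a change in RNA per cell cannot be told apart.

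Interferon transcripts were at or below the detection limit. Of 21 interferon ligand genes, 19 had 0 counts in all 9 libraries, Ifnb1 had 1 count in all and Ifnk 2, and none passed the filter. A count of 0 allows up to 3 counts per library, which is 0.117 to 0.183 CPM here; this limit covers counting error only. Per kilobase of exon, Bst2, which tethers virus particles to the cell surface, was the highest of the 41 at 99.7 ± 2.17 CPM per kb with sgRNA 11, 90.5 ± 2.99 with sgRNA 15 and 95.4 ± 2.19 with safe sgRNA. Trim25 followed at 45.2 ± 0.628 CPM per kb with safe sgRNA, and Oas1a at 32.1 ± 1.59. The lowest was Iigp1, at 0.128 ± 0.0201 CPM per kb with safe sgRNA, and the median of the 41 genes there was 3.70. In CPM, 30 of the 41 genes averaged at least 5, 11 were under 5 and 3 were under 1, and the lowest count of any of them in any library was 5. Together they took 0.127% of counts with sgRNA 11, 0.112% with sgRNA 15 and 0.115% with safe sgRNA.

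**Figure D1:**
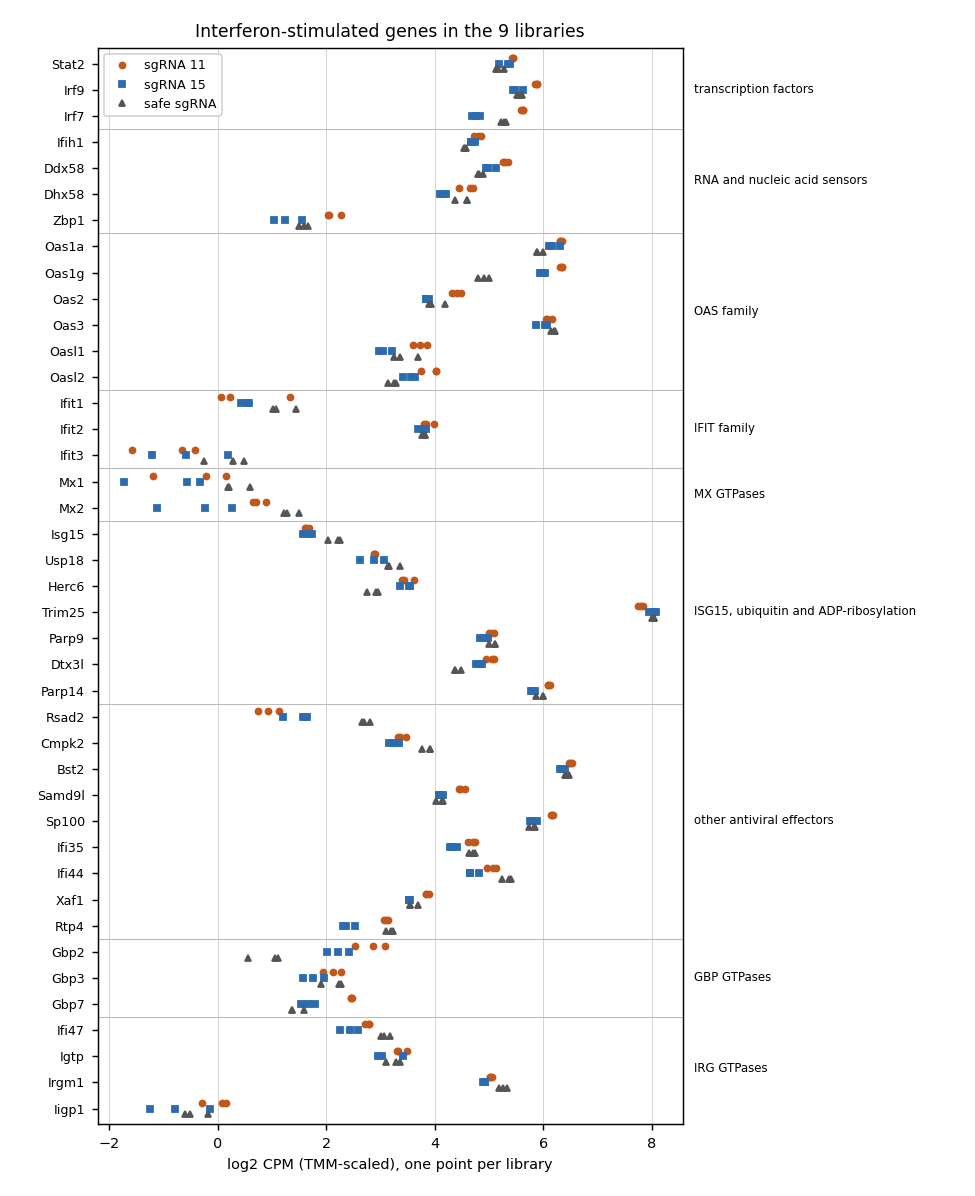
Log2 CPM (TMM-scaled) of the 41 genes in each of the 9 libraries, with genes down the page by role and 1 point per library, sgRNA 11 as circles, sgRNA 15 as squares and safe sgRNA as triangles. Replicates lie close together for the genes above about 5 CPM and spread more for Ifit3, Mx1, Mx2 and Iigp1, the genes with few counts.

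The 2 guides were followed by different patterns. With sgRNA 11, 19 of the 41 genes were higher than with safe sgRNA and 11 lower. Of all tested genes, 33.3% were called higher and 32.4% lower in that comparison. The median log2 fold change over the 41 was 0.12 beside 0.01 over all tested genes. With sgRNA 15, 8 were higher and 19 lower, beside 32.2% of all tested genes called higher and 30.7% lower. The median over the 41 was then -0.15 beside 0.01 over all tested genes. Split by kind, the type I antiviral genes counted 17 higher and 9 lower of 34 with sgRNA 11 and 7 higher and 16 lower with sgRNA 15. The 7 GTPases counted 2 higher and 2 lower with sgRNA 11 and 1 higher and 3 lower with sgRNA 15. The median log2 fold change of the type I genes was 0.11 with sgRNA 11 and -0.15 with sgRNA 15, and that of the GTPases was 0.12 with sgRNA 11 and -0.30 with sgRNA 15. Each GTPase median is the value of a single uncalled gene, Igtp with sgRNA 11 and Iigp1, which has few counts, with sgRNA 15. Both comparisons use the same 3 safe sgRNA libraries, so they are not independent of each other. With the 2 guides averaged and set against safe sgRNA, 13 of the 41 genes were higher and 16 lower, where 68% of all tested genes were called (34.7% higher and 33.3% lower), and the median was -0.01.

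**Figure D2:**
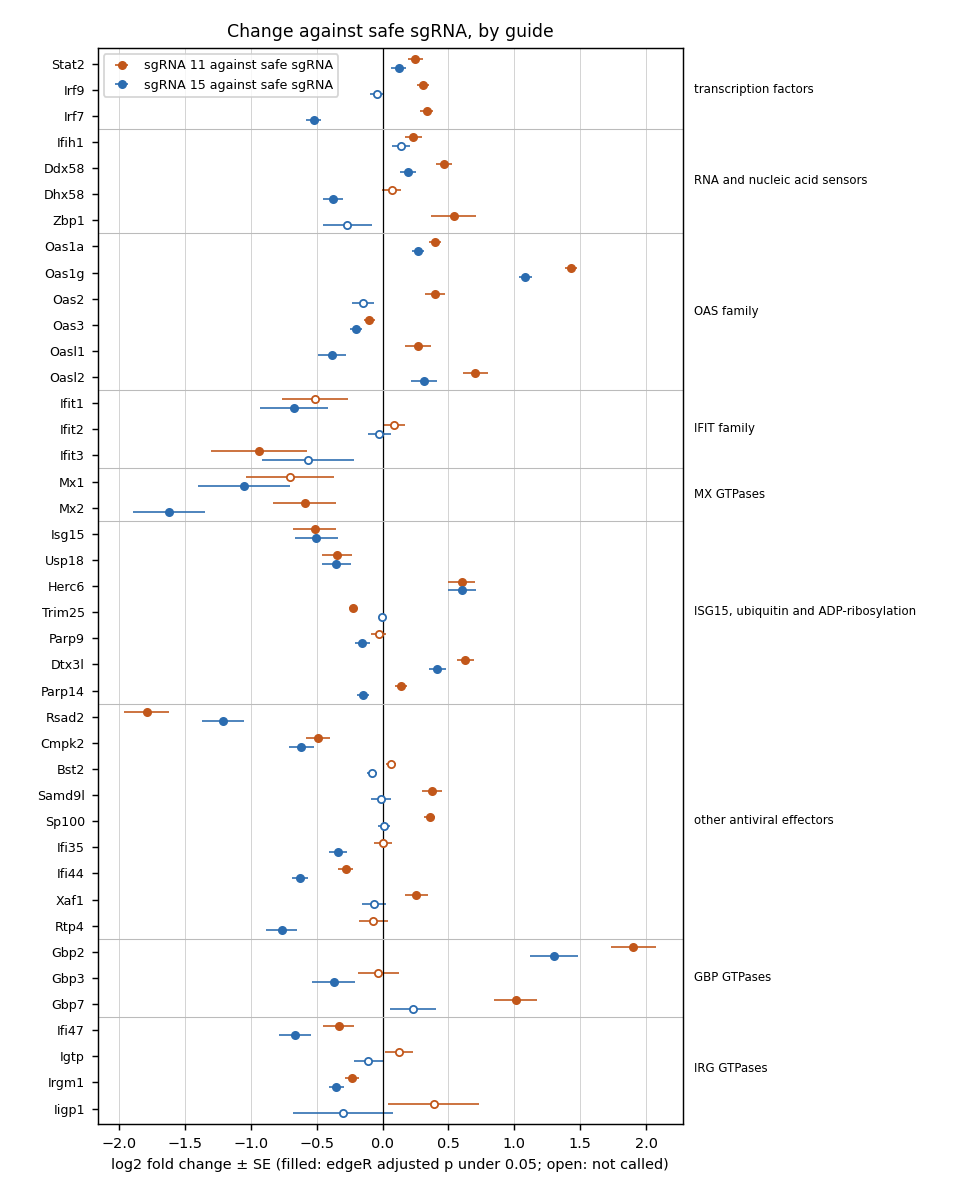
Log2 fold change against safe sgRNA, with its SE as a bar, for each of the 41 genes with sgRNA 11 (orange) and sgRNA 15 (blue); filled points have an edgeR adjusted p under 0.05 and genes run down the page by role. Gbp2 and Oas1g lie farthest to the right and Rsad2 and Mx2 farthest to the left, and for most genes the sgRNA 15 point lies left of the sgRNA 11 point.

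The 3 transcription factors of the set were all higher with sgRNA 11, and with sgRNA 15 they split. Calls over all tested genes were 33.3% higher and 32.4% lower with sgRNA 11, and 32.2% higher and 30.7% lower with sgRNA 15. Irf7, which amplifies type I interferon production, had 49.5, 49.0 and 47.9 CPM with sgRNA 11, 27.0, 25.7 and 28.4 CPM with sgRNA 15 and 38.9, 39.9 and 37.2 CPM with safe sgRNA. No library of one group overlapped another, with sgRNA 11 above safe sgRNA and sgRNA 15 below it. The log2 fold change was 0.33 ± 0.05 with sgRNA 11 (edgeR adjusted p = 2.54e-08) and -0.52 ± 0.06 with sgRNA 15 (edgeR adjusted p = 1.68e-13). Irf9, the DNA-binding partner of STAT2, had 57.3, 59.3 and 58.6 CPM with sgRNA 11, 44.5, 49.1 and 43.4 CPM with sgRNA 15 and 48.7, 45.8 and 46.9 CPM with safe sgRNA. Its sgRNA 11 libraries lay above all others (log2 0.31 ± 0.05, edgeR adjusted p = 3.65e-08), and its sgRNA 15 libraries overlapped those with safe sgRNA (-0.04 ± 0.05, not called). Stat2, the signalling protein that IRF9 joins, averaged 43.3 ± 0.520 CPM with sgRNA 11, 39.4 ± 2.90 CPM with sgRNA 15 and 36.4 ± 1.94 CPM with safe sgRNA (SD, n = 3 each). It was higher with sgRNA 11 (log2 0.25 ± 0.05) and, by a small margin, with sgRNA 15 (0.12 ± 0.06, edgeR adjusted p = 0.0466). The sgRNA 15 call of Stat2 was lost without any 1 of safe sgRNA replicates 1 and 3, sgRNA 11 replicates 1, 2 and 3 and sgRNA 15 replicates 1 and 2, with edgeR adjusted p between 0.0508 and 0.313.

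Among the sensors, 3 of 4 were higher with sgRNA 11 and none lower, and with sgRNA 15 there was 1 in each direction. All tested genes gave 33.3% higher and 32.4% lower with sgRNA 11, and 32.2% higher and 30.7% lower with sgRNA 15. Ddx58, which encodes RIG-I, a sensor of viral RNA ends, had 40.7, 38.2 and 39.1 CPM with sgRNA 11, 30.8, 35.1 and 31.4 CPM with sgRNA 15 and 29.7, 27.99 and 27.7 CPM with safe sgRNA. Both guides lay above safe sgRNA, sgRNA 11 higher than sgRNA 15, with log2 fold changes of 0.47 ± 0.06 with sgRNA 11 (edgeR adjusted p = 3.07e-11) and 0.19 ± 0.06 with sgRNA 15 (edgeR adjusted p = 0.00419). Ifih1, which encodes MDA5, a sensor of long double-stranded RNA, was higher with sgRNA 11 (log2 0.23 ± 0.07, edgeR adjusted p = 0.00109) and not called with sgRNA 15 (0.14 ± 0.07). Dhx58, which encodes LGP2, a regulator of both of these sensors, averaged 24.3 ± 2.23 CPM with sgRNA 11, 17.8 ± 0.658 CPM with sgRNA 15 and 23.1 ± 1.97 CPM with safe sgRNA. It was lower with sgRNA 15 (log2 -0.38 ± 0.08, edgeR adjusted p = 9.97e-06) and not called with sgRNA 11 (0.07 ± 0.07). Zbp1, a sensor of left-handed nucleic acid that can start necroptosis, had 4.14, 4.07 and 4.85 CPM with sgRNA 11, 2.37, 2.94 and 2.06 CPM with sgRNA 15 and 2.99, 2.83 and 3.18 CPM with safe sgRNA. The sgRNA 11 libraries were above the rest (log2 0.54 ± 0.17, edgeR adjusted p = 0.00427), and those with sgRNA 15 overlapped safe sgRNA (-0.27 ± 0.19, not called). Without sgRNA 15 replicate 2 the sgRNA 15 call of Ddx58 was lost (edgeR adjusted p = 0.130).

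The OAS family, whose members make 2′-5′ oligoadenylate that activates RNase L or are relatives without that activity, gave 5 of 6 higher and 1 lower with sgRNA 11. With sgRNA 15 it gave 3 higher and 2 lower. The shares of all tested genes were 33.3% higher and 32.4% lower with sgRNA 11, and 32.2% and 30.7% with sgRNA 15. Oas1g (chr5:120876142-120887613) had the largest rise of the 34 type I genes with each guide. It had 81.3, 81.5 and 79.3 CPM with sgRNA 11, 62.8, 65.7 and 61.4 CPM with sgRNA 15 and 27.9, 32.1 and 30.2 CPM with safe sgRNA. Each guide's libraries lay above all safe sgRNA libraries. The level was 2.69 times that of safe sgRNA with sgRNA 11 (log2 1.43 ± 0.05, edgeR adjusted p = 2.74e-43) and 2.12 times with sgRNA 15 (1.08 ± 0.05, edgeR adjusted p = 7.02e-34). Its near copy Oas1a (chr5:120896256-120907521) had 79.0, 81.1 and 79.4 CPM with sgRNA 11, 69.2, 71.7 and 78.8 CPM with sgRNA 15 and 58.8, 64.0 and 58.7 CPM with safe sgRNA. The groups of Oas1a also stood apart, but by less, with log2 fold changes of 0.40 ± 0.04 with sgRNA 11 and 0.27 ± 0.04 with sgRNA 15. Of its 50-base transcript stretches, 57.6% also occur in another gene, and so do 45.7% of those of Oas1g. Reads that aligned to more than 1 place were not counted, so the levels of both genes may be too low. How the other reads divide between the pair is uncertain. Oasl2, an OAS-like protein, averaged 15.3 ± 1.67 CPM with sgRNA 11, 11.7 ± 0.900 CPM with sgRNA 15 and 9.38 ± 0.476 CPM with safe sgRNA. It was higher with both guides, by 0.70 ± 0.09 with sgRNA 11 (edgeR adjusted p = 3.63e-10) and 0.32 ± 0.10 with sgRNA 15 (edgeR adjusted p = 0.00402) on the log2 scale. Oas2 was higher with sgRNA 11 (log2 0.40 ± 0.08, edgeR adjusted p = 7.60e-06) and not called with sgRNA 15 (-0.15 ± 0.08).

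Oasl1, which in mice restrains translation of Irf7, moved in opposite directions with the 2 guides, as Irf7 did. It had 14.5, 13.2 and 12.1 CPM with sgRNA 11, 9.27, 8.24 and 7.81 CPM with sgRNA 15 and 12.9, 10.2 and 9.55 CPM with safe sgRNA. The sgRNA 15 libraries lay below all safe sgRNA libraries, and the sgRNA 11 range overlapped the safe sgRNA range. The log2 fold change was 0.27 ± 0.10 with sgRNA 11 (edgeR adjusted p = 0.0127) and -0.38 ± 0.11 with sgRNA 15 (edgeR adjusted p = 0.00127). Oas3 had 68.3 ± 2.99 CPM with sgRNA 11, 63.5 ± 4.75 CPM with sgRNA 15 and 73.0 ± 1.91 CPM with safe sgRNA, and alone of the 6 was called lower with both guides. The log2 fold change was -0.10 ± 0.04 with sgRNA 11 (edgeR adjusted p = 0.0407) and -0.20 ± 0.04 with sgRNA 15 (edgeR adjusted p = 4.61e-05). Several of these calls did not pass the threshold in refits without 1 library, which also have fewer samples. The sgRNA 11 call of Oasl1 was lost without safe sgRNA replicate 2 (edgeR adjusted p = 0.0958), safe sgRNA replicate 3 (0.146) or sgRNA 11 replicate 1 (0.108), and its sgRNA 15 call without safe sgRNA replicate 1 (0.0879). The sgRNA 11 call of Oas3 was lost without safe sgRNA replicate 1 or 3 (0.111 and 0.0767) or sgRNA 11 replicate 1 or 3 (0.218 and 0.0932). In the refits that lost a call, the log2 fold change with sgRNA 11 was 0.18 to 0.21 for Oasl1 and -0.10 to -0.07 for Oas3, and with sgRNA 15 it was -0.23 for Oasl1. The sgRNA 15 call of Oasl2 was narrowly lost without sgRNA 15 replicate 2 (0.05002), and Oas2 became called lower with sgRNA 15 without safe sgRNA replicate 1 (0.0470).

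None of the IFIT and MX genes was higher with either guide. Among all tested genes, 33.3% were called higher with sgRNA 11 and 32.2% with sgRNA 15, so none among so few genes does not set them apart. Ifit1, Ifit2 and Ifit3 encode proteins that bind viral RNA or each other and limit its translation. Ifit2 was the steadiest of them, at 14.7 ± 1.01 CPM with sgRNA 11, 13.7 ± 0.678 CPM with sgRNA 15 and 13.9 ± 0.269 CPM with safe sgRNA. It was not called with either guide, at log2 0.09 ± 0.09 with sgRNA 11 and -0.02 ± 0.09 with sgRNA 15. Ifit1 had 2.51, 1.17 and 1.04 CPM with sgRNA 11, 1.497, 1.35 and 1.45 CPM with sgRNA 15 and 2.04, 2.73 and 2.11 CPM with safe sgRNA. Its sgRNA 15 libraries lay below those with safe sgRNA (log2 -0.67 ± 0.26, edgeR adjusted p = 0.0183), while 1 sgRNA 11 library lay within the safe sgRNA range (-0.51 ± 0.25, edgeR adjusted p = 0.0661, not called). Ifit3 averaged 0.572 ± 0.214 CPM with sgRNA 11, 0.745 ± 0.357 CPM with sgRNA 15 and 1.15 ± 0.287 CPM with safe sgRNA. It was lower with sgRNA 11 (log2 -0.94 ± 0.36, edgeR adjusted p = 0.0191) and not called with sgRNA 15 (-0.56 ± 0.35). It shares 51.2% of its 50-base stretches with Ifit3b.

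The MX family is known for GTPases that block incoming viruses. GENCODE M21 classes Mx2 as a polymorphic pseudogene, so its reads are not taken here to stand for a working protein. Mx2 (chr16:97535308-97560900) had 1.85, 1.56 and 1.63 CPM with sgRNA 11, 1.21, 0.463 and 0.847 CPM with sgRNA 15 and 2.83, 2.43 and 2.32 CPM with safe sgRNA. The 3 groups did not overlap, with safe sgRNA highest and sgRNA 15 lowest. The log2 fold change was -0.59 ± 0.24 with sgRNA 11 (edgeR adjusted p = 0.0246) and -1.62 ± 0.27 with sgRNA 15 (edgeR adjusted p = 2.32e-07). With sgRNA 15 the level was 3.07 times lower. Mx1 had 0.440, 1.12 and 0.861 CPM with sgRNA 11, 0.676, 0.799 and 0.303 CPM with sgRNA 15 and 1.52, 1.16 and 1.13 CPM with safe sgRNA. Both guides lay below safe sgRNA, and the change was called with sgRNA 15 (log2 -1.05 ± 0.35, edgeR adjusted p = 0.00676) but not with sgRNA 11 (-0.70 ± 0.33, edgeR adjusted p = 0.0575). These are low counts, and several calls changed in refits without 1 library. The Mx2 call with sgRNA 11 was lost without safe sgRNA replicate 1 (edgeR adjusted p = 0.124) or sgRNA 11 replicate 2 or 3 (0.0595 and 0.0609). The Mx1 call with sgRNA 15 was lost without safe sgRNA replicate 1 (0.0565) or sgRNA 15 replicate 3 (0.0610), and Mx1 became called with sgRNA 11 without its replicate 2 (0.0209). Ifit1 lost its sgRNA 15 call without safe sgRNA replicate 2 (0.108) or sgRNA 15 replicate 2 (0.0608) and gained one with sgRNA 11 without its replicate 1 (0.00154). Ifit3 lost its sgRNA 11 call without safe sgRNA replicate 2 or 3 (0.0543 and 0.0933) or sgRNA 11 replicate 2 (0.107) and gained one with sgRNA 15 without its replicate 2 (0.0295).

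ISG15 is a ubiquitin-like protein that is attached to other proteins during an interferon response, and USP18 removes it and blocks the type I receptor. Isg15 (chr4:156199424-156200818), whose promoter stretch held 3 ISRE cores, had 3.21, 3.07 and 3.08 CPM with sgRNA 11, 3.19, 2.99 and 3.33 CPM with sgRNA 15 and 4.07, 4.65 and 4.75 CPM with safe sgRNA. Every library with either guide lay below every safe sgRNA library, and the guides overlapped each other. The level was 1.43 times lower with sgRNA 11 (log2 -0.52 ± 0.16, edgeR adjusted p = 0.00439) and 1.42 times lower with sgRNA 15 (-0.50 ± 0.17, edgeR adjusted p = 0.00604). Usp18 averaged 7.39 ± 0.0353 CPM with sgRNA 11, 7.29 ± 1.09 CPM with sgRNA 15 and 9.32 ± 0.783 CPM with safe sgRNA and was also lower with both guides (log2 -0.34 ± 0.11 with sgRNA 11 and -0.35 ± 0.11 with sgRNA 15). Herc6, the ligase that attaches ISG15 in mice, went the other way, at 10.7, 12.3 and 10.5 CPM with sgRNA 11, 10.3, 11.5 and 11.7 CPM with sgRNA 15 and 7.55, 6.77 and 7.72 CPM with safe sgRNA. It was higher with each guide by about the same amount, at log2 0.60 ± 0.11 with sgRNA 11 (edgeR adjusted p = 5.20e-07) and 0.60 ± 0.11 with sgRNA 15 (edgeR adjusted p = 6.18e-07), although its exons overlap another annotated gene, Gm45193. Without safe sgRNA replicate 1 both calls of Usp18 were lost (edgeR adjusted p = 0.0690 with sgRNA 11 and 0.0582 with sgRNA 15).

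Trim25, the ubiquitin ligase that activates RIG-I, was the most abundant of the 41 in CPM, at 222 ± 6.76 CPM with sgRNA 11, 259 ± 12.3 CPM with sgRNA 15 and 259.9 ± 3.61 CPM with safe sgRNA. It was lower with sgRNA 11 (log2 -0.23 ± 0.03, edgeR adjusted p = 1.76e-11) and not called with sgRNA 15 (-0.0013 ± 0.03). Parp9 and Dtx3l, neighbours on chromosome 16 whose products form an ADP-ribosyl transferase and ubiquitin ligase complex, did not move alike. Dtx3l was higher with both guides, at 32.6 ± 1.74 CPM with sgRNA 11, 28.2 ± 1.06 CPM with sgRNA 15 and 21.2 ± 0.927 CPM with safe sgRNA. The log2 fold changes were 0.63 ± 0.06 with sgRNA 11 and 0.42 ± 0.07 with sgRNA 15. Parp9 was not called with sgRNA 11 (log2 -0.03 ± 0.06) and was lower with sgRNA 15 (-0.15 ± 0.06, edgeR adjusted p = 0.0207). Parp14, an ADP-ribosyl transferase of the same cluster, had 67.9, 69.6 and 68.1 CPM with sgRNA 11, 57.4, 55.6 and 54.7 CPM with sgRNA 15 and 63.8, 58.4 and 64.1 CPM with safe sgRNA. Its sgRNA 11 libraries lay above and its sgRNA 15 libraries below safe sgRNA, by small amounts, at log2 0.14 ± 0.04 with sgRNA 11 (edgeR adjusted p = 0.00356) and -0.15 ± 0.05 with sgRNA 15 (edgeR adjusted p = 0.00250). The sgRNA 11 call of Parp14 was lost without safe sgRNA replicate 2 (edgeR adjusted p = 0.101) and the sgRNA 15 call of Parp9 without sgRNA 15 replicate 1 (0.130).

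The remaining 9 antiviral effectors counted 3 higher and 3 lower with sgRNA 11, and 0 higher and 5 lower with sgRNA 15. The sgRNA 11 counts were near the shares of all tested genes, 33.3% higher and 32.4% lower. For sgRNA 15 those shares were 32.2% higher and 30.7% lower. Rsad2 (chr12:26442746-26456452), which encodes viperin, an enzyme that makes a chain-terminating nucleotide, had the largest fall of the 41 genes with sgRNA 11. It had 1.67, 2.18 and 1.90 CPM with sgRNA 11, 3.14, 2.99 and 2.30 CPM with sgRNA 15 and 6.47, 6.32 and 7.02 CPM with safe sgRNA. All libraries with a guide lay far below those with safe sgRNA, and sgRNA 11 lay below sgRNA 15. The level was 3.46 times lower with sgRNA 11 (log2 -1.79 ± 0.17, edgeR adjusted p = 4.97e-16) and 2.32 times lower with sgRNA 15 (-1.21 ± 0.16, edgeR adjusted p = 1.93e-10). Cmpk2 (chr12:26469204-26479837), the neighbouring nucleotide kinase gene that supplies viperin's substrate, had 10.2, 10.0 and 11.1 CPM with sgRNA 11, 10.2, 9.46 and 8.96 CPM with sgRNA 15 and 15.1, 15.1 and 13.7 CPM with safe sgRNA. It was lower with both guides, by less than Rsad2 (log2 -0.49 ± 0.09 with sgRNA 11 and -0.62 ± 0.09 with sgRNA 15). Ifi44, a cytoplasmic protein of incompletely known function, was lower with both guides, at 33.2 ± 1.92 CPM with sgRNA 11, 26.1 ± 1.86 CPM with sgRNA 15 and 40.4 ± 2.49 CPM with safe sgRNA. The corresponding log2 fold changes were -0.28 ± 0.06 with sgRNA 11 and -0.63 ± 0.06 with sgRNA 15.

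The 3 effectors that were higher with sgRNA 11 were not called with sgRNA 15. Sp100, a scaffold of nuclear bodies, had 72.5, 70.4 and 71.9 CPM with sgRNA 11, 54.1, 58.8 and 55.7 CPM with sgRNA 15 and 56.5, 57.7 and 53.6 CPM with safe sgRNA. The sgRNA 11 libraries lay above all others (log2 0.36 ± 0.04, edgeR adjusted p = 2.13e-11), and those with sgRNA 15 overlapped safe sgRNA (0.01 ± 0.05). Samd9l, a restriction factor that blocks translation, had log2 fold changes of 0.37 ± 0.07 with sgRNA 11 and -0.01 ± 0.08 with sgRNA 15, and Xaf1, a proapoptotic protein, had 0.25 ± 0.09 with sgRNA 11 and -0.07 ± 0.09 with sgRNA 15. Rtp4, a chaperone of receptor trafficking, and Ifi35, which forms a complex with another interferon-induced protein, Nmi, were not called with sgRNA 11 but were lower with sgRNA 15. Rtp4 averaged 8.55 ± 0.237 CPM with sgRNA 11, 5.30 ± 0.403 CPM with sgRNA 15 and 8.99 ± 0.407 CPM with safe sgRNA, at log2 -0.07 ± 0.11 with sgRNA 11 and -0.77 ± 0.12 with sgRNA 15 (edgeR adjusted p = 2.38e-08 for sgRNA 15). Ifi35 had log2 fold changes of 0.0033 ± 0.07 with sgRNA 11 and -0.34 ± 0.07 with sgRNA 15 (edgeR adjusted p = 1.55e-05 for sgRNA 15). The exons of Rtp4 overlap Gm45338, and those of Ifi35 overlap Gm11626 on the opposite strand. Bst2, the highest per kilobase, was not called with either guide (log2 0.07 ± 0.04 with sgRNA 11 and -0.08 ± 0.04 with sgRNA 15). It became called lower with sgRNA 15 without safe sgRNA replicate 2, sgRNA 11 replicate 3 or sgRNA 15 replicate 3 (edgeR adjusted p = 0.0298, 0.0321 and 0.0155). With sgRNA 11 it became called higher when scaled by library size alone (edgeR adjusted p = 0.0185) or filtered at a minimum mean of 5 CPM (0.0268).

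**Figure D3:**
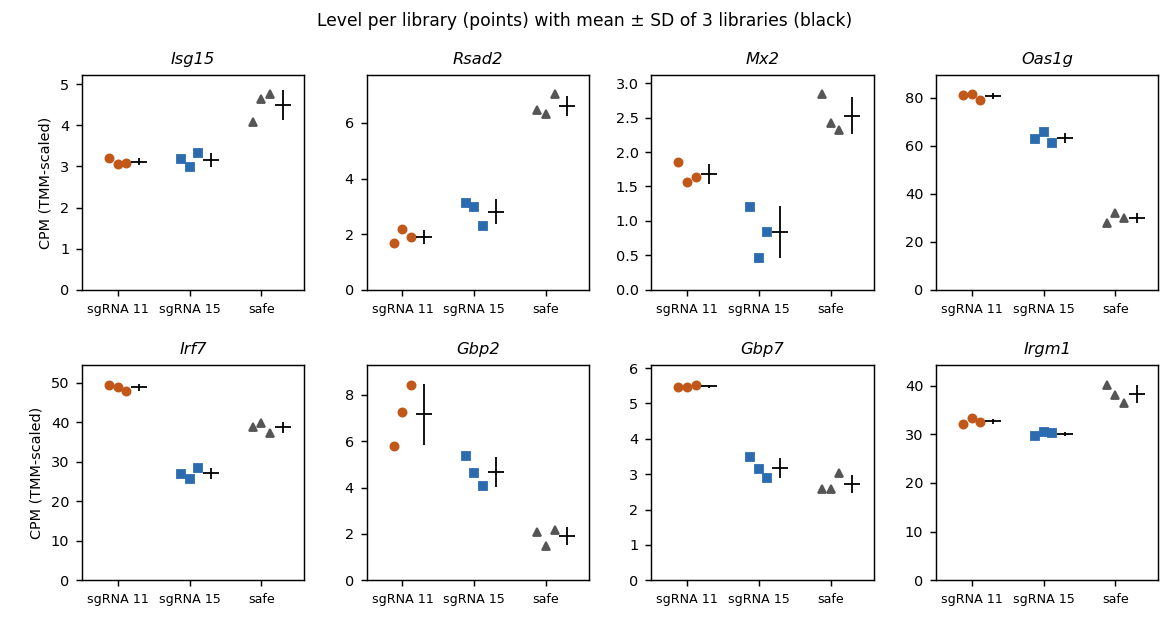
CPM (TMM-scaled, axes from 0) of 8 genes in each library, as 1 point per library with the mean and SD of 3 libraries in black, sgRNA 11 at the left, sgRNA 15 in the middle and safe sgRNA at the right. Isg15, Rsad2, Mx2 and Irgm1 are lower with both guides, Oas1g and Gbp2 are higher with both, Irf7 is higher with sgRNA 11 and lower with sgRNA 15, and Gbp7 stands out with sgRNA 11.

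Of the 3 GBP genes, which lie together on chromosome 3, Gbp2 was higher with both guides. Gbp2 (chr3:142620602-142638008), which coats vacuoles and bacteria, had 5.81, 7.25 and 8.43 CPM with sgRNA 11, 5.36, 4.63 and 4.05 CPM with sgRNA 15 and 2.08, 1.47 and 2.16 CPM with safe sgRNA. Both guides stood above safe sgRNA, with sgRNA 11 above sgRNA 15. The level was 3.74 times that of safe sgRNA with sgRNA 11 (log2 1.90 ± 0.17, edgeR adjusted p = 2.83e-17) and 2.46 times with sgRNA 15 (1.30 ± 0.18, edgeR adjusted p = 1.55e-09). Gbp7 (chr3:142530342-142550149), which supports oxidative killing in macrophages, had 5.46, 5.47 and 5.53 CPM with sgRNA 11, 3.48, 3.15 and 2.90 CPM with sgRNA 15 and 2.595, 2.58 and 3.02 CPM with safe sgRNA. Its sgRNA 11 libraries agreed closely and lay above all others (log2 1.01 ± 0.16, edgeR adjusted p = 5.51e-08), while sgRNA 15 overlapped safe sgRNA (0.23 ± 0.18, edgeR adjusted p = 0.258). Gbp3 had 4.84, 4.35 and 3.85 CPM with sgRNA 11, 3.91, 3.36 and 2.97 CPM with sgRNA 15 and 4.71, 3.74 and 4.86 CPM with safe sgRNA. Its 3 groups overlapped; it was not called with sgRNA 11 (log2 -0.03 ± 0.16) and was called lower with sgRNA 15 (-0.37 ± 0.16, edgeR adjusted p = 0.0414). That call was lost without safe sgRNA replicate 1 or 3 (edgeR adjusted p = 0.133 and 0.121) or sgRNA 15 replicate 2 or 3 (0.0933 and 0.138), and the exons of Gbp7 overlap Gm43802.

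The 4 IRG genes included none that was higher with a guide. The share of all tested genes called higher was 33.3% with sgRNA 11 and 32.2% with sgRNA 15. Outside the set, the IRG gene Irgm2 was higher with sgRNA 11 (log2 0.51, edgeR adjusted p = 8.78e-07) and not called with sgRNA 15 (log2 0.09). Irgm1, a regulatory IRG that guards self membranes from the effector IRGs, had 32.2, 33.3 and 32.5 CPM with sgRNA 11, 29.5, 30.4 and 30.3 CPM with sgRNA 15 and 40.2, 38.0 and 36.5 CPM with safe sgRNA. The guides lay below safe sgRNA without overlap, at log2 -0.23 ± 0.06 with sgRNA 11 (edgeR adjusted p = 0.000188) and -0.35 ± 0.06 with sgRNA 15 (edgeR adjusted p = 9.91e-08). Ifi47, another GTPase of the family, had 6.91, 6.86 and 6.52 CPM with sgRNA 11, 6.03, 4.75 and 5.39 CPM with sgRNA 15 and 9.06, 8.03 and 8.37 CPM with safe sgRNA. It was lower with both guides, more so with sgRNA 15, at log2 -0.33 ± 0.12 with sgRNA 11 (edgeR adjusted p = 0.00949) and -0.67 ± 0.12 with sgRNA 15 (edgeR adjusted p = 1.57e-06). Igtp, the regulatory IRG also named Irgm3, averaged 10.4 ± 0.737 CPM with sgRNA 11, 8.81 ± 1.56 CPM with sgRNA 15 and 9.55 ± 0.868 CPM with safe sgRNA and was not called with either guide, at log2 0.12 ± 0.11 with sgRNA 11 and -0.11 ± 0.11 with sgRNA 15. Iigp1, an effector IRG that ruptures parasite vacuoles, was near the limit of these data. It averaged 0.996 ± 0.159 CPM with sgRNA 11, 0.636 ± 0.248 CPM with sgRNA 15 and 0.746 ± 0.117 CPM with safe sgRNA, and was not called (log2 0.39 ± 0.35 with sgRNA 11 and -0.30 ± 0.38 with sgRNA 15). The sgRNA 11 call of Ifi47 was lost without safe sgRNA replicate 1 (edgeR adjusted p = 0.0673), and Igtp became called lower with sgRNA 15 without its replicate 2 (0.0385).

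Set directly against each other, the 2 guides differed mostly in 1 direction. With sgRNA 15, 23 of the 41 genes were lower than with sgRNA 11 and 2 were higher, beside 15.5% of all tested genes called lower and 18% higher. The median log2 difference was -0.32 beside 0.01 over all tested genes. The type I genes counted 20 lower and 2 higher of 34 (median -0.28), and the GTPases 3 lower and 0 higher of 7 (median -0.34). Summed over the 41 genes, the level was 1125 ± 19.9 CPM with sgRNA 15 and 1268 ± 7.59 CPM with sgRNA 11 (SD, n = 3 each). With safe sgRNA it was 1153 ± 7.46 CPM. These sums were not tested. The sum of the 7 GTPases was 56.2 ± 1.37 CPM with sgRNA 15 and 67.8 ± 0.35 CPM with sgRNA 11, with 66.1 ± 3.19 CPM with safe sgRNA. The macrophage marker sum given above was likewise lower with sgRNA 15 than with sgRNA 11, with 5 of its 8 genes called lower and 2 higher, and whether it has a part in this difference was not tested.

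By role, the comparison of sgRNA 15 with sgRNA 11 gave 2 of 3 transcription factors, 3 of 4 sensors, 5 of 6 OAS genes, 7 of 9 effectors and 2 of 3 GBP genes lower, with 1 effector higher. It gave none of 3 IFIT genes, 1 of 2 MX genes, 2 of 7 genes of ISG15, ubiquitin and ADP-ribosylation and 1 of 4 IRG genes lower, with 1 of those 7 higher. Of all tested genes, 15.5% were called lower and 18% higher in this comparison. Irf7 differed by -0.86 on the log2 scale (SE 0.06, edgeR adjusted p = 3.40e-24), averaging 27.1 ± 1.35 CPM with sgRNA 15 and 48.8 ± 0.806 CPM with sgRNA 11. Mx2 differed by -1.03 ± 0.29, Zbp1 by -0.81 ± 0.18, Gbp7 by -0.78 ± 0.16, Rtp4 by -0.70 ± 0.12 and Oasl1 by -0.65 ± 0.10. The 2 genes that were higher with sgRNA 15 were Rsad2 and Trim25. Rsad2 averaged 2.81 ± 0.447 CPM with sgRNA 15 and 1.92 ± 0.252 CPM with sgRNA 11 (log2 0.58 ± 0.20, edgeR adjusted p = 0.0154). For Trim25 the log2 difference was 0.23 ± 0.03, edgeR adjusted p = 1.07e-10. Isg15, Usp18 and Herc6, the conjugation genes that changed with both guides, were not called between them, with log2 differences of 0.01 ± 0.18 for Isg15, -0.01 ± 0.12 for Usp18 and 0.00081 ± 0.10 for Herc6.

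Several of these calls between the guides changed in refits without 1 library. Rsad2 was no longer called without sgRNA 11 replicate 1 or sgRNA 15 replicate 1 or 2 (edgeR adjusted p = 0.0945, 0.0911 and 0.0686). Mx2 was no longer called without sgRNA 15 replicate 2 (0.0829), and Oas1a without sgRNA 15 replicate 1 or 2 (0.120 and 0.0520). Ifi47 was no longer called without sgRNA 11 replicate 1 or 2 (0.0785 and 0.0642) or sgRNA 15 replicate 2 or 3 (0.204 and 0.0600). In these refits the log2 difference was 0.48 to 0.53 for Rsad2, -0.70 for Mx2, -0.12 to -0.10 for Oas1a and -0.34 to -0.24 for Ifi47. Calls were gained for Stat2 without safe sgRNA replicate 1 or sgRNA 15 replicate 2 (0.0444 and 0.0201), for Oas3 without sgRNA 11 replicate 1 or sgRNA 15 replicate 2 or 3 (0.0293, 0.0386 and 0.0206), and for Parp9 and Igtp without sgRNA 15 replicate 2 (0.0410 and 0.00581).

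**Figure D4:**
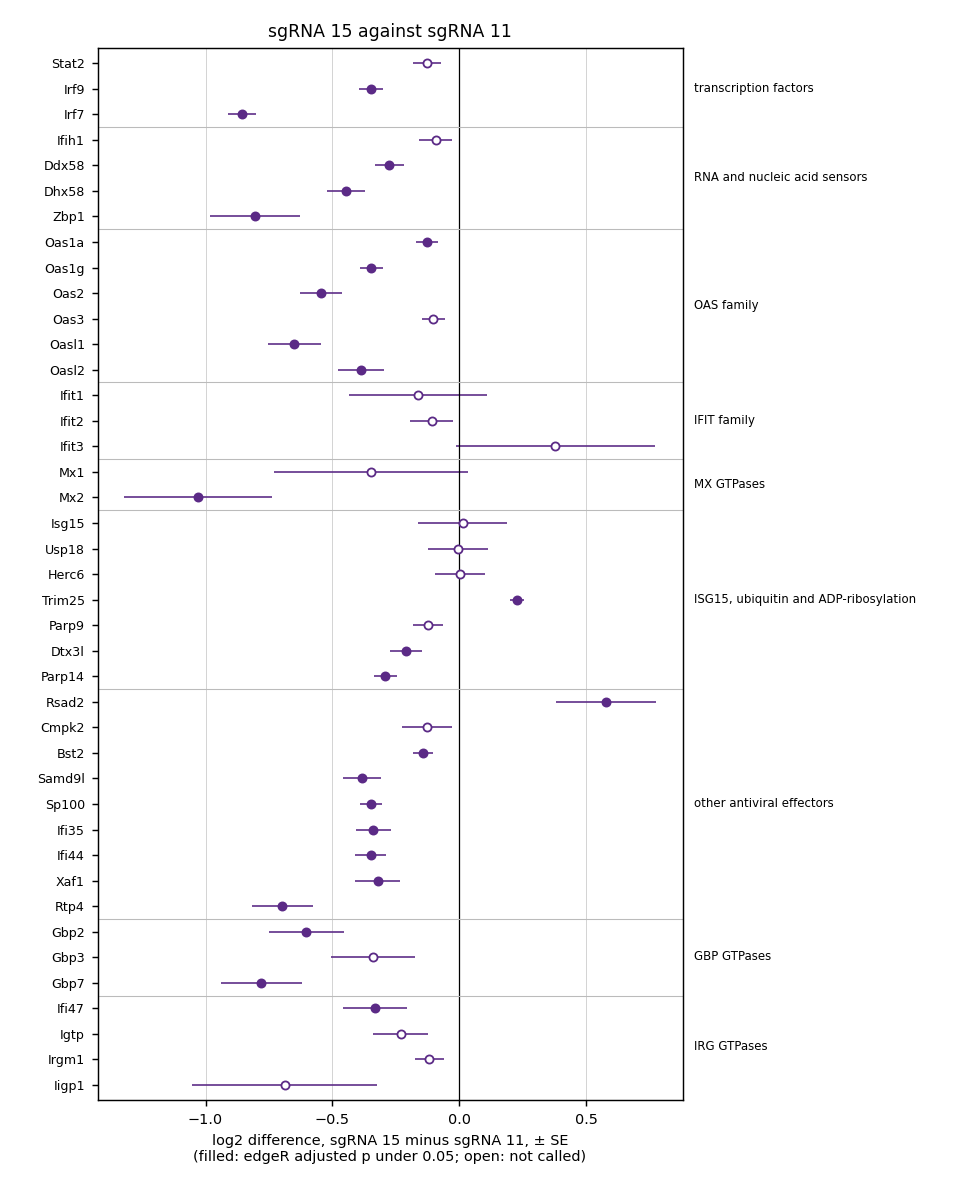
Log2 difference of sgRNA 15 minus sgRNA 11, with its SE as a bar, for each of the 41 genes by role; filled points have an edgeR adjusted p under 0.05. Rsad2 and Trim25 are the 2 filled points right of 0, and 23 filled points lie left of 0.

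Genes of the receptors and their kinases were mostly higher with the guides. Of 8 tested genes for interferon receptors and JAK kinases, among 9 listed, 6 were higher and 1 lower with sgRNA 11, and 6 higher and 1 lower with sgRNA 15. Their median log2 fold change was 0.43 with sgRNA 11 and 0.37 with sgRNA 15, and 0.01 over all tested genes with each guide. Of all tested genes, 33.3% were called higher and 32.4% lower with sgRNA 11, and 32.2% higher and 30.7% lower with sgRNA 15. Tyk2, the kinase of the type I receptor, had 98.4, 93.4 and 97.2 CPM with sgRNA 11, 91.6, 83.7 and 89.9 CPM with sgRNA 15 and 59.6, 54.1 and 56.7 CPM with safe sgRNA. As log2 fold changes these were 0.76 ± 0.04 with sgRNA 11 (edgeR adjusted p = 2.46e-29) and 0.63 ± 0.04 with sgRNA 15 (edgeR adjusted p = 5.22e-24). Ifnar2 and Ifnar1, the chains of that receptor, were higher too, Ifnar2 by 0.64 ± 0.04 with sgRNA 11 and 0.40 ± 0.04 with sgRNA 15 and Ifnar1 by 0.28 ± 0.03 with sgRNA 11 and 0.21 ± 0.03 with sgRNA 15 on the log2 scale. The 2 chains of the interferon gamma receptor went apart. Ifngr1 was higher (log2 0.83 ± 0.05 with sgRNA 11 and 0.33 ± 0.05 with sgRNA 15), and Ifngr2 was lower (-0.15 ± 0.04 with sgRNA 11 and -0.24 ± 0.04 with sgRNA 15).

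Other interferon regulatory factors counted 5 higher of 6 with sgRNA 11 and 2 higher and 2 lower with sgRNA 15, with a median of 0.32 with sgRNA 11 and 0.07 with sgRNA 15. Beside these counts, 33.3% of all tested genes were called higher with sgRNA 11, and 32.2% higher and 30.7% lower with sgRNA 15. Irf1, an activator of GBP genes, had 35.6, 35.5 and 37.1 CPM with sgRNA 11, 24.5, 24.9 and 24.3 CPM with sgRNA 15 and 28.6, 28.8 and 26.1 CPM with safe sgRNA. It lay above safe sgRNA with sgRNA 11 and below it with sgRNA 15, at log2 0.37 ± 0.06 with sgRNA 11 (edgeR adjusted p = 4.76e-08) and -0.18 ± 0.06 with sgRNA 15 (edgeR adjusted p = 0.00915), the same order of groups as Irf7. Irf2, known as an antagonist of Irf1, was higher with both (log2 0.48 ± 0.04 with sgRNA 11 and 0.18 ± 0.04 with sgRNA 15), as was Irf3, the factor activated by sensor signalling (0.26 ± 0.05 with sgRNA 11 and 0.15 ± 0.05 with sgRNA 15). Irf4, a factor of lymphocytes and some macrophages, was higher with sgRNA 11 and not called with sgRNA 15 (log2 0.60 ± 0.20 with sgRNA 11 and 0.12 ± 0.21 with sgRNA 15).

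Among 15 other genes of nucleic acid sensing and interferon induction, 7 were higher and 7 lower with sgRNA 11, and 5 higher and 9 lower with sgRNA 15, with a median of -0.05 with sgRNA 11 and -0.14 with sgRNA 15. For this list and the others of this paragraph, the shares of all tested genes with sgRNA 11 were 33.3% higher and 32.4% lower. With sgRNA 15 they were 32.2% higher and 30.7% lower. Cgas, the cytosolic DNA sensor, had 51.7, 52.1 and 48.3 CPM with sgRNA 11, 51.8, 55.4 and 55.7 CPM with sgRNA 15 and 89.96, 92.6 and 88.6 CPM with safe sgRNA. Every guide library was below every safe sgRNA library, at log2 -0.84 ± 0.04 with sgRNA 11 (edgeR adjusted p = 9.04e-31) and -0.74 ± 0.04 with sgRNA 15 (edgeR adjusted p = 2.88e-27). Ikbke, a kinase that activates IRF3 and IRF7, was lower with both guides (log2 -0.59 ± 0.04 with sgRNA 11 and -0.44 ± 0.04 with sgRNA 15), while Unc93b1, the chaperone that takes nucleic acid Toll-like receptors to endolysosomes, was higher (0.71 ± 0.02 with sgRNA 11 and 0.58 ± 0.02 with sgRNA 15). Negative regulators of interferon signalling counted 3 higher and 6 lower of 9 with sgRNA 11 and 1 higher and 5 lower with sgRNA 15, with a median of -0.17 with sgRNA 11 and -0.23 with sgRNA 15. Irf2, counted above among the interferon regulatory factors, is in this list too and was the 1 gene higher with sgRNA 15. Usp15, a deubiquitinase of this group, changed by -0.58 ± 0.04 with sgRNA 11 and -0.45 ± 0.04 with sgRNA 15 and the phosphatase gene Ptpn11 by -0.29 ± 0.03 with sgRNA 11 and -0.26 ± 0.03 with sgRNA 15 on the log2 scale. Of 7 tested genes of nucleic acid clearance, 2 were higher and 4 lower with sgRNA 11 and 2 higher and 3 lower with sgRNA 15, with a median of -0.14 with sgRNA 11 and -0.02 with sgRNA 15. Samhd1, which depletes deoxynucleotides, averaged 291 ± 11.2 CPM with sgRNA 11, 217 ± 7.49 CPM with sgRNA 15 and 315 ± 0.131 CPM with safe sgRNA. Log2 fold changes stood at -0.11 ± 0.03 with sgRNA 11 and -0.54 ± 0.03 with sgRNA 15. Adar, which edits double-stranded RNA, was lower with both (-0.23 ± 0.04 with sgRNA 11 and -0.40 ± 0.04 with sgRNA 15). Rnaseh2a, a subunit of RNase H2, was higher with both (0.33 ± 0.04 with sgRNA 11 and 0.21 ± 0.04 with sgRNA 15).

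GBP and IRG genes outside the set, 12 listed and 5 tested, gave 5 higher with sgRNA 11, beside 33.3% of all tested genes. With sgRNA 15, 2 were higher, beside 32.2% of all tested genes, and none was lower with either guide. Their median was 1.42 with sgRNA 11 and 0.33 with sgRNA 15. The largest change of them was in Gbp8, which had 6.12, 5.08 and 5.62 CPM with sgRNA 11, 6.47, 7.49 and 6.54 CPM with sgRNA 15 and 0.399, 0.606 and 0.918 CPM with safe sgRNA. Both guides lay above safe sgRNA, at 9.04 times its level with sgRNA 11 (log2 3.18 ± 0.22, edgeR adjusted p = 2.50e-23) and 11.0 times with sgRNA 15 (3.46 ± 0.21, edgeR adjusted p = 3.52e-26). With safe sgRNA Gbp8 lay near the limit of the filter on low counts, which it passed through the guide groups. A gene that low is tested only if it is higher with a guide, so it could not have counted as lower. Gbp2b, a close relative of Gbp2 also known as Gbp1, averaged 7.15 ± 0.522 CPM with sgRNA 11, 4.58 ± 0.461 CPM with sgRNA 15 and 2.68 ± 0.263 CPM with safe sgRNA. Its log2 fold changes were 1.42 ± 0.15 with sgRNA 11 and 0.78 ± 0.16 with sgRNA 15. Gbp4 was higher with sgRNA 11 (log2 1.53 ± 0.22, edgeR adjusted p = 1.88e-09) and not called with sgRNA 15 (0.33 ± 0.25).

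A further 56 tested interferon-stimulated genes outside the 41, of 64 listed, counted 30 higher and 10 lower with sgRNA 11, and 18 higher and 21 lower with sgRNA 15. Between the guides, 2 of the 56 were higher and 31 lower with sgRNA 15 than with sgRNA 11. Their median log2 fold changes were 0.22 with sgRNA 11, 0.01 with sgRNA 15 and -0.23 for sgRNA 15 against sgRNA 11. Of all tested genes, 33.3% were called higher and 32.4% lower with sgRNA 11, and 32.2% higher and 30.7% lower with sgRNA 15. Between the guides, 18% of all tested genes were higher and 15.5% lower. This list, like the 41, was chosen with earlier results of these data known. Helz2, an interferon-induced helicase, was lower with both guides, at log2 -0.62 ± 0.03 with sgRNA 11 (edgeR adjusted p = 9.48e-34) and -0.95 ± 0.03 with sgRNA 15 (edgeR adjusted p = 1.24e-45). Shisa5, an inducer of apoptosis, was higher with both (log2 0.83 ± 0.03 with sgRNA 11 and 0.48 ± 0.03 with sgRNA 15), and Ifi207, a gene of the PYHIN family of DNA-binding proteins, was lower with both (-0.87 ± 0.04 with sgRNA 11 and -0.65 ± 0.04 with sgRNA 15).

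**Figure D5:**
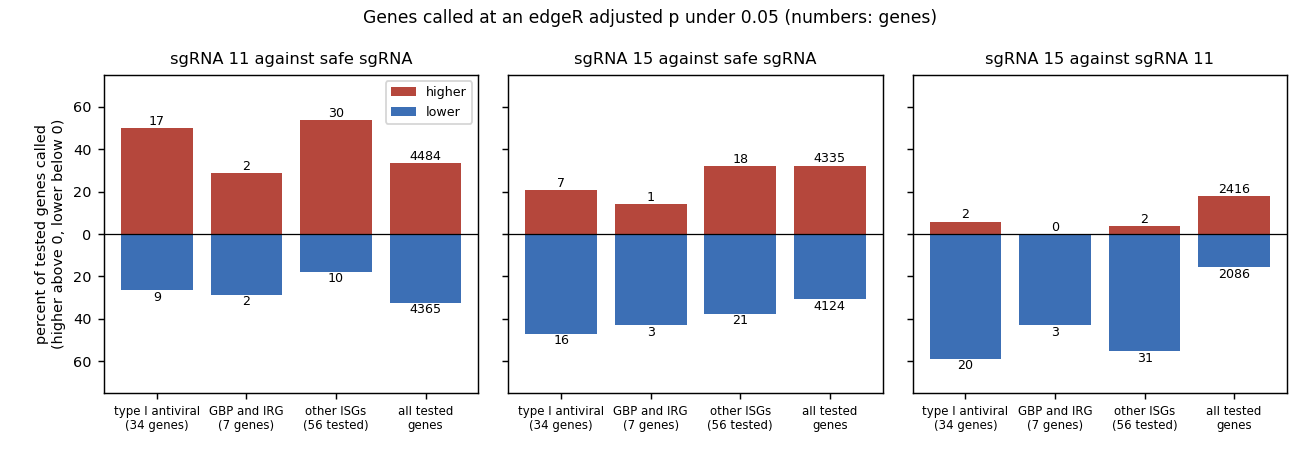
Percent of tested genes called higher (above 0) or lower (below 0) at an edgeR adjusted p under 0.05 in 3 comparisons, for the 34 type I antiviral genes, the 7 GBP and IRG GTPases, 56 other interferon-stimulated genes and all tested genes, with the number of genes at each bar. With sgRNA 15 against sgRNA 11, the lower bars of the interferon gene sets are taller than that of all tested genes, and their higher bars are shorter.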

How the data were processed

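The deposited files are whole-number counts of reads per gene for 9 libraries. The authors made them with STAR and HTSeq on mm10, per the submitters' processing notes; no source used here gives versions, annotation or strand setting. Reads that HTSeq assigned to no gene were left out of library sizes and tests: 4.10 to 4.60% had no feature, 6.32 to 6.56% were ambiguous and 6.20 to 6.69% aligned to more than 1 place, and 79.3 to 80.7% lay in genes. Symbols came from GENCODE M21 (GRCm38, the mm10 assembly), which named 55227 of the 55487 gene IDs; all 41 members matched. Genes were filtered with filterByExpr (minimum count 10), scaled by TMM (factors 0.979 to 1.02) and tested with edgeR 4.0.16 (R 4.3.3) by its quasi-likelihood test, all 3 groups in 1 fit with 6 residual degrees of freedom and no covariate, with Benjamini-Hochberg adjustment over 13453 genes. Contrasts set each guide and the average of the guides against safe sgRNA and set the guides against each other. The code was tested on simulated data. Alternatives were relative log expression factors, library size alone, an adjustment for gene length and GC content, other filters, DESeq2 1.42.0, limma-voom (limma 3.58.1), a replicate block, fits of the compared groups alone and leaving out each library. No 2 libraries of a group agreed within sampling noise. The fit did not pair libraries by replicate number: 0 of 9 same-numbered pairs had a correlation of deviations over 0.1. These correlations ran from -0.008 to 0.058, and those of other pairs from -0.072 to 0.041. Of the 9 libraries, 5 correlated best with their own number, so pairing is not excluded. The text names all 41 members and, from each other list, up to 3 tested genes with the smallest p for the averaged guides. It also names Slc12a9, Ifnb1, Ifnar1, Ifnar2, Ifngr1, Ifngr2 and Irf1. Ifnk, Cd3e, Cd3g, Cxcl10 and Irgm2 were named after their values were seen. Some results are not reported here. The members and lists were chosen with earlier results of these data known. Promoter windows were read from RefSeq on GRCm38.p6, and motif positions are from its transcription starts.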

Additional observations from a re-analysis of the deposited data

Results flagged for a closer look

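Irf7, Oasl1 and Parp14 were called higher with sgRNA 11 and lower with sgRNA 15 against the same safe sgRNA libraries. Of all tested genes, 113 (0.840%) had this pair of calls, Irf1 among them. The log2 difference of sgRNA 15 from sgRNA 11 was -0.86 ± 0.06 for Irf7, -0.65 ± 0.10 for Oasl1 and -0.29 ± 0.04 for Parp14; the genes were picked by their opposite calls in the same libraries, so these differences restate that choice. The Irf7 libraries had 27.0, 25.7 and 28.4 CPM with sgRNA 15 and 49.5, 49.0 and 47.9 CPM with sgRNA 11, with 38.9, 39.9 and 37.2 CPM with safe sgRNA. For Irf7 and Parp14 all 3 groups were separate, whereas the sgRNA 11 and safe sgRNA ranges of Oasl1 overlapped, and its change with sgRNA 11 lost its call without any 1 of safe sgRNA replicates 2 and 3 and sgRNA 11 replicate 1 (edgeR adjusted p = 0.0958, 0.146 and 0.108). Parp14 lost its sgRNA 11 call without safe sgRNA replicate 2 (0.101).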

How the results depend on the processing

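Across 18 alternatives, 2663 of 2867 values of the 41 members kept their direction and side of the threshold, 71 stayed uncalled but changed sign, 42 passed the threshold newly, 91 no longer passed it and 0 called values reversed. Counts that moved by over 1.5 times did so mostly with a minimum mean of 5 CPM, which drops the 11 members below it. With that filter the type I antiviral genes that were lower numbered 4 (9 without it) with sgRNA 11 and 7 (14) for the averaged guides, and those higher with sgRNA 15 than with sgRNA 11 numbered 1 (2). The GTPases that were higher with that filter numbered 0 (2) with sgRNA 11, 0 (1) with sgRNA 15 and 0 (2) for the averaged guides, and those lower with sgRNA 15 than with sgRNA 11 numbered 1 (3). With DESeq2, 1 GTPase was lower with sgRNA 11 (2 with edgeR) and 1 type I gene was higher with sgRNA 15 than with sgRNA 11 (2). Leaving out 1 library at a time gave 1 to 2 GTPases lower with sgRNA 11 (1 without safe sgRNA replicate 1), 4 to 7 type I genes higher with sgRNA 15 (4 without sgRNA 15 replicate 2) and 1 to 2 type I genes higher with sgRNA 15 than with sgRNA 11 (1 without sgRNA 11 replicate 1 or sgRNA 15 replicate 1 or 2). With the replicate block, 17 type I genes were higher and 9 lower with sgRNA 11, and 8 higher and 16 lower with sgRNA 15; no same-numbered pair had a correlation of deviations over 0.1, while 5 of 9 libraries correlated best with their own number, a hint from the data and not the design. With DESeq2 the calls lost against safe sgRNA were those of Oas3, Oasl1, Ifit3, Mx2, Xaf1 and Ifi47 with sgRNA 11 and of Stat2, Ifit1, Parp9 and Gbp3 with sgRNA 15, and between the guides those of Oas1a, Rsad2 and Ifi47. The adjustment for gene length and GC content ended the calls of Oasl1 with sgRNA 11, Stat2 with sgRNA 15, and Oas1a and Bst2 between the guides. Stat2 with sgRNA 15, Oas3 with sgRNA 11 and Parp9 and Gbp3 with sgRNA 15 also lost calls under other scalings, filters or fits. The cause was not tested. A fit of the compared groups alone gives no value for the averaged guides. No scaling moved the median of all genes by more than 0.04 on the log2 scale. The members under 1 CPM carry few counts, so changes in them can be missed at this depth. With a single guide against safe sgRNA, those called were Ifit3 with sgRNA 11 (log2 -0.94 ± 0.36) and Mx1 with sgRNA 15 (log2 -1.05 ± 0.35). The smallest change that could be detected in them was not worked out.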

Other observations

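Cxcl10, a chemokine gene induced by interferons that belongs to the 56 other interferon-stimulated genes, was chosen for mention after its values were seen. It had 0.616, 0.725 and 0.816 CPM with sgRNA 11, 0.531, 0.589 and 0.666 CPM with sgRNA 15 and 2.48, 2.93 and 3.35 CPM with safe sgRNA. All guide libraries lay below all safe sgRNA libraries (log2 fold change -2.00 ± 0.28, edgeR adjusted p = 7.58e-10 with sgRNA 11, and -2.28 ± 0.29, edgeR adjusted p = 5.10e-11 with sgRNA 15), and the guides did not differ by call (-0.28 ± 0.36).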
